A study of Elaeis guineensis with 6 samples.

Results

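In the inflorescence at leaf axil +5 of a completely defoliated oil palm, 32 genes stood far above every other library of the study. They were chosen by their deposited expression values. A gene was taken if its FPKM in the stress library at +5 was at least 5 and at least 4 times the highest FPKM of the other 5 libraries. FPKM is a count of sequenced fragments scaled for gene length and for the number of mapped fragments in a library. Only identifiers on a single record were considered, 31653 of the 32099 records in the table, and DRM was left out. The 32 genes were 0.313% of the 10216 such genes with an FPKM of 5 or more in the stress library at +5. None of the 446 records of repeated identifiers met the same criteria.

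The study sequenced RNA from inflorescences of Elaeis guineensis. The stress tree had all of its leaves cut except the central unopened one, and the control tree was left untreated. Both were felled 45 days later, and 1 library was made from the inflorescence at each of leaf axils -27, -20 and +5 of each tree. The 6 libraries are called stress -27, stress -20, stress +5, control -27, control -20 and control +5. With 1 tree per treatment and 1 library in each combination, tree and treatment cannot be told apart, and no value at stress +5 has a replicate.

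An oil palm bears an inflorescence in the axil of each leaf, and leaf number orders these inflorescences by age, negative numbers standing for leaves that have not yet opened. The youngest axils hold meristems that have yet to make flowers, while the inflorescence sampled at leaf axil +5 was further developed but had not yet emerged. Each inflorescence becomes male or female, and complete defoliation is a treatment known to shift palms towards male inflorescences. In plants the loss of leaves removes the source of sugar for growing organs, and inflorescences on such palms may be aborted. All 32 genes carry LOC identifiers. A RefSeq gene table of assembly EG11, a newer assembly than the one used for alignment, matched 28 of them, and it gives no product names, so no role is assigned to any of them here. It lists 24 as protein coding, 3 as long non-coding RNAs, which are transcripts without a protein product, and 1 as a pseudogene.

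Read totals per library are published with the study and are not part of the deposited FPKM table. From the FPKM steps that single fragments make in weakly expressed genes, depth relative to control -27 was between 0.949 (control +5) and 1.19 (stress -27), with 1.12 for stress +5. Of 15 floral and meristem symbols set as tissue markers, 7 were in the table. KNOX1, a homeobox gene of meristems, was at 961, 914 and 928 FPKM in stress at -27, -20 and +5, and at 847, 480 and 381 FPKM in control. SQUA1, a MADS-box gene of floral meristems, was at 4.10, 8.43 and 149.9 FPKM in stress and at 5.59, 6.78 and 124 FPKM in control. GLO2 was at 2.15, 0.844 and 3.51 FPKM in stress and at 3.61, 4.86 and 7.83 FPKM in control. AGL6-1 and AGL2-3 were listed at 0 in all libraries but control +5, at 2.21 and 0.153 FPKM there, DEF1 in all but control -27, and AG2 in all 6. At +5, KNOX1 and SQUA1 were thus higher in stress, and GLO2, AGL6-1 and AGL2-3 were lower. As markers of green leaf tissue, 20 plastid photosystem genes summed to between 1.54 and 4.61 FPKM in a library, and 8 were listed at 0 in every library. The sum was highest in stress +5, where psaI at 2.98 FPKM and psaJ at 1.05 FPKM made up most of it. Of the listed photosystem genes, psaI alone had its highest value in stress +5, and the others detected were highest in other libraries. The part of leaf tissue in the values below was not tested.

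The 32 genes ranged widely in level in stress +5, with a lowest FPKM of 5.01, a median of 13.7 and a highest of 172. There were 23 genes at 10 or more, 13 at 20 or more and 3 at 100 or more. Their FPKM values summed to 80.5, 121 and 929 in stress at -27, -20 and +5, and to 82.8, 94.7 and 111 in control at the same leaf axils. They held 0.389% of the FPKM sum of stress +5, against 0.0311% to 0.0478% in the other libraries. The 3 highest genes made up 43.5% of the members' sum in stress +5. In bulk tissue, more cells of a type and more RNA per cell cannot be told apart.

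**Figure D1:**
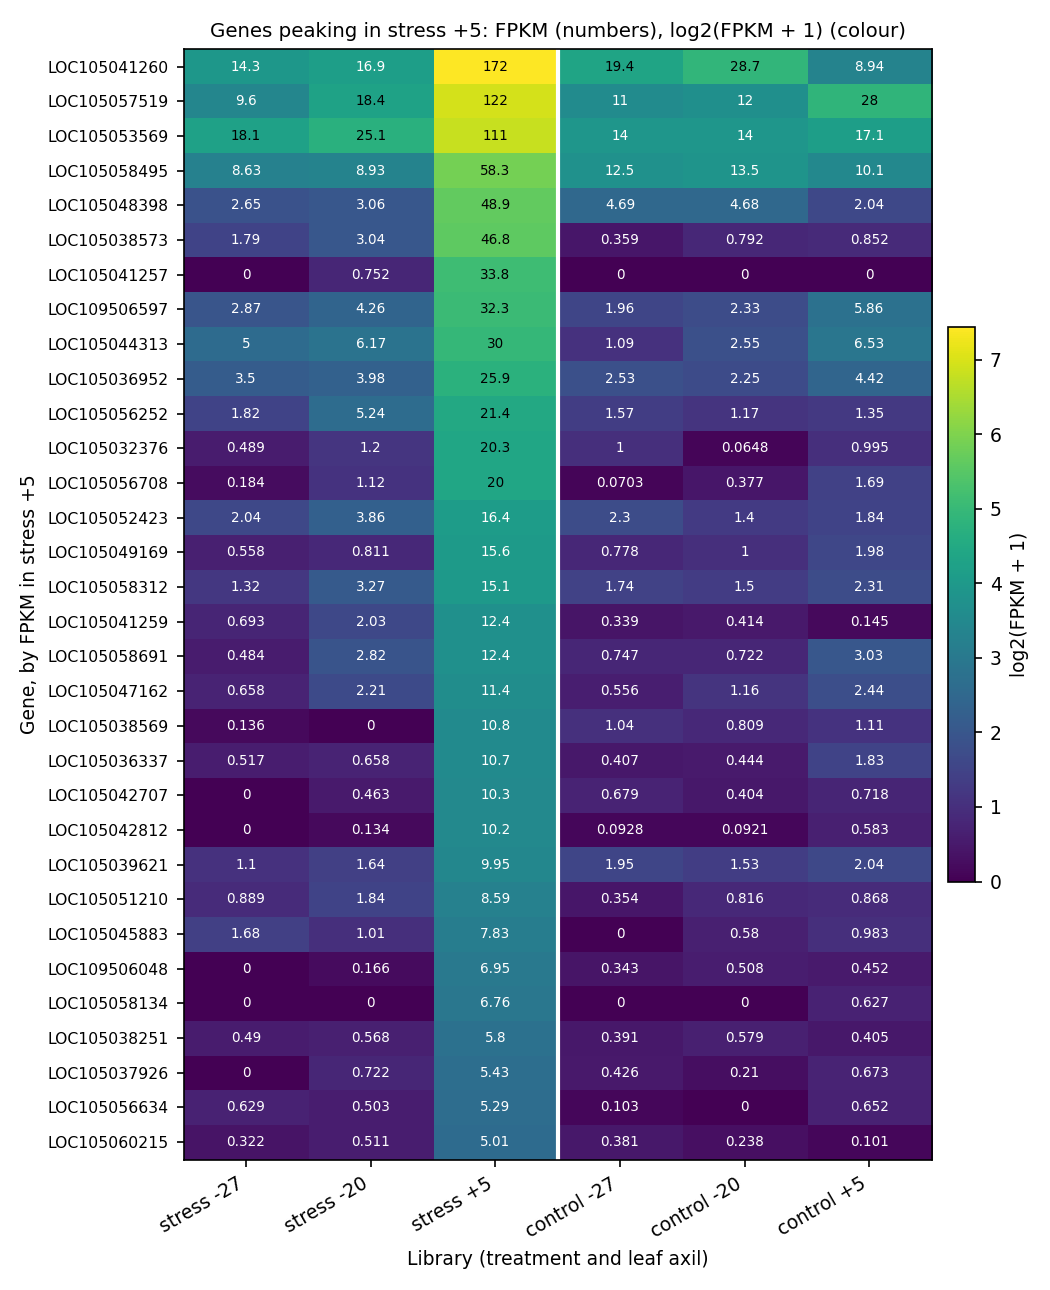
FPKM (printed numbers) and log2(FPKM + 1) (colour) of the 32 genes chosen for their value in stress +5, 1 row per gene and 1 column per library, ordered by FPKM in stress +5. The stress +5 column is the highest in every row, as the choice of genes required, and its values run from 5.01 to 172.

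LOC105041260 had the highest level. It was at 14.3, 16.9 and 172 FPKM in stress at -27, -20 and +5, against 19.4, 28.7 and 8.94 FPKM in control. Its next highest library was therefore an early control, and stress +5 and control +5 were its 2 extremes. LOC105057519 was at 9.60, 18.4 and 122 FPKM in stress and at 10.98, 11.97 and 27.98 FPKM in control, so that in both trees its highest value was at +5. LOC105053569 was at 18.1, 25.1 and 111 FPKM in stress and at 14.0, 14.0 and 17.1 FPKM in control. In the control tree its 3 values lay close together. LOC105058495 was at 8.63, 8.93 and 58.3 FPKM in stress and at 12.5, 13.5 and 10.1 FPKM in control. LOC105048398 was at 2.65, 3.06 and 48.9 FPKM in stress and at 4.69, 4.68 and 2.04 FPKM in control. In LOC105058495 all control values lay above the early stress values, and in LOC105048398 the early controls did so while control +5 was the lowest of the 6 libraries.

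The ratio of stress +5 to the next highest library had a median of 6.05 and reached 8 or more in 13 genes and 15 or more in 4 genes. The largest ratio, 45.0, belonged to LOC105041257. That gene was at 0.752 and 33.8 FPKM in stress at -20 and +5, and was listed at 0 in stress -27 and in all 3 control libraries. LOC105042812 followed with a ratio of 17.5, its FPKM being 10.2 in stress +5 and at most 0.583 elsewhere. LOC105032376 was at 0.489, 1.20 and 20.3 FPKM in stress and at 1.00, 0.0648 and 0.995 FPKM in control. Its ratio was 16.9. LOC105038573 was at 1.79, 3.04 and 46.8 FPKM in stress and at 0.359, 0.792 and 0.852 FPKM in control, a ratio of 15.4. In LOC105038573 all 3 stress libraries lay above all 3 control libraries, whereas the early values of LOC105032376 overlapped between the trees.

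Smaller levels with large ratios were seen in further genes. LOC105042707 was listed at 0 in stress -27 and was at 0.463 and 10.3 FPKM in stress at -20 and +5, against 0.679, 0.404 and 0.718 FPKM in control. LOC109506048 was listed at 0 in stress -27 and was at 0.166 and 6.95 FPKM in stress at -20 and +5, against 0.343, 0.508 and 0.452 FPKM in control. LOC105058134 was listed at 0 in both early stress libraries and was at 6.76 FPKM in stress +5, and in the control tree it was listed at 0 in the early libraries and was at 0.627 FPKM at +5. These 3 genes belong to a set of 9 with an FPKM under 1 in all 5 other libraries. The opposite set, with an FPKM of 1 or more in all 5 other libraries, had 12 genes. LOC105038569 was at 0.136, 0 and 10.8 FPKM in stress and at 1.04, 0.809 and 1.11 FPKM in control, so its early stress values were below all of its control values. LOC105038251 and LOC105060215 reached 5.80 and 5.01 FPKM in stress +5, and the highest values elsewhere were 0.579 and 0.511 FPKM.

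At the edge of the selection, the members with the smallest ratios were LOC105058691 at 4.08, LOC105056252 at 4.09, LOC105052423 at 4.24 and LOC105058495 at 4.33. Just outside it were LOC105041713, with 14.8 FPKM in stress +5 and a ratio of 3.96, LOC105039750 with 9.63 FPKM and 3.94, LOC105044284 with 6.01 FPKM and 3.83, and LOC105057391 with 7.21 FPKM and 3.79. There was thus no gap between members and non-members. For 3 of these 4 non-members the next highest library was control +5.

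The next highest library was control +5 for 15 of the 32 genes, stress -20 for 11, control -20 for 4, and control -27 and stress -27 for 1 each. The first of these sets joins genes that were also at their control maximum at +5. LOC109506597, listed as a long non-coding RNA, was at 2.87, 4.26 and 32.3 FPKM in stress and at 1.96, 2.33 and 5.86 FPKM in control. LOC105044313, also listed as a long non-coding RNA, was at 5.00, 6.17 and 29.96 FPKM in stress and at 1.09, 2.55 and 6.53 FPKM in control. LOC105036952 was at 3.50, 3.98 and 25.9 FPKM in stress and at 2.53, 2.25 and 4.42 FPKM in control. In these 3 genes control +5 lay above every early library of both trees. LOC105056708 was at 0.184, 1.12 and 20.05 FPKM in stress and at 0.0703, 0.377 and 1.69 FPKM in control, an increasing order of leaf axils in both trees. In the set led by stress -20, LOC105056252 was at 1.82, 5.24 and 21.4 FPKM in stress, against 1.57, 1.17 and 1.35 FPKM in control. LOC105045883, the gene whose next value was in stress -27, was at 1.68, 1.01 and 7.83 FPKM in stress and at 0, 0.580 and 0.983 FPKM in control, and it is named here after its values were seen. The 9 other members (LOC105052423, LOC105049169, LOC105058312, LOC105047162, LOC105036337, LOC105039621, LOC105051210, LOC105037926 and LOC105056634) were between 5.29 and 16.4 FPKM in stress +5 and at most 3.86 FPKM in any other library. LOC105037926 among them is the gene listed as a pseudogene, with 0, 0.722 and 5.43 FPKM in stress and 0.426, 0.210 and 0.673 FPKM in control.

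The control tree gives the course of the same genes without defoliation, from libraries other than the one that chose them, although the choice capped their values. Differences were taken on the log2(FPKM + 1) scale, which understates those of low genes, and a difference of at least 1 against both early control libraries was counted. Over the 20926 records with an FPKM of 1 or more in any library, 7.13% were higher by that margin in control +5 than in both, and 3.26% were lower. Among the 32 genes, 4 were higher and 1 was lower, that is 12.5% and 3.12%. By any amount, control +5 was above both early controls in 21 of the 32 genes, or 65.6%, against 47.9% of all records, and below both in 5 genes, or 15.6%, against 36.6% of all records. The median difference from the mean of the early controls was 0.30 over the 32 genes and 0.07 over all records, with a range of -1.31 to 1.47 in the members. These counts come from single libraries and have no test.

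The 4 genes at least 2-fold higher in control +5 on the log2(FPKM + 1) scale were LOC105044313 (log2 difference 1.47), LOC105057519 (1.22), LOC105058691 (1.21) and LOC109506597 (1.13). Of these, 3 are listed as long non-coding RNAs. The share of all long non-coding RNA records that were higher in this way was not taken, and 4 of the 32 genes were not matched. LOC105058691, the third long non-coding RNA, was at 0.484, 2.82 and 12.4 FPKM in stress and at 0.747, 0.722 and 3.03 FPKM in control. On the log2(FPKM + 1) scale LOC105041260 was the gene at least 2-fold lower. Its log2 difference was -1.31 in the control tree against 3.38 in the defoliated tree. LOC105048398 came next with -0.90 in the control tree against 3.70 in the defoliated tree, where the positive sign was fixed by the choice of genes.

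**Figure D2:**
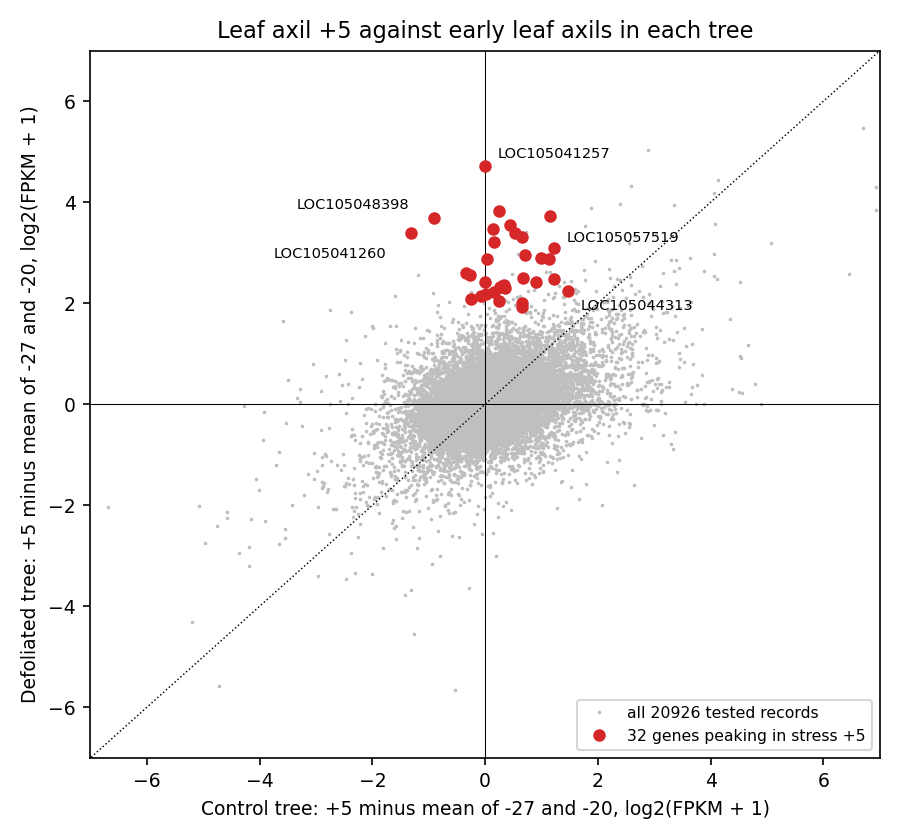
Difference between leaf axil +5 and the mean of -27 and -20 on the log2(FPKM + 1) scale in the defoliated tree (vertical) and in the control tree (horizontal), for the 32 genes (red) and all 20926 records with an FPKM of 1 or more in any library (grey). The dotted line marks equal differences. The members lie at 1.93 to 4.72 on the vertical axis, as the choice of genes required, and spread from -1.31 to 1.47 on the horizontal axis.

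Within the defoliated tree, most of the genes were higher at leaf axil -20 than at -27, a comparison chosen after the values were seen. Stress -20 was above stress -27 in 28 of the 32 genes, or 87.5%, against 44.1% of all 20926 records. In the control tree -20 was above -27 in 15 of the 32 genes, or 46.9%, against 48.9% of all records. Among the 20 members with an FPKM of 1 or more in either early stress library, 19 were higher at -20, against 44.0% of the 18532 records at that level. The median log2 difference of the members was 0.38 in the defoliated tree and 0.00 in the control tree, while the medians of all records were -0.03 and 0.00. On the log2(FPKM + 1) scale, 2 members (6.25%) were at least 2-fold higher at stress -20 than at stress -27, against 0.55% of all records. None was at least 2-fold lower, against 0.497%. That scale understates differences of low genes, and the members' median in stress -27 was 0.675 FPKM. The 2 genes at least 2-fold higher were LOC105058691 with a log2 difference of 1.36 and LOC105056252 with 1.15. In the control tree their differences were -0.02 and -0.25. LOC105045883 had the largest difference in the other direction, -0.41 in the defoliated tree against 0.66 in the control tree. Stress -27 was also the deepest library by the estimate above, at 1.19 against 1.03 for stress -20, and the part of depth in these differences was not tested.

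**Figure D3:**
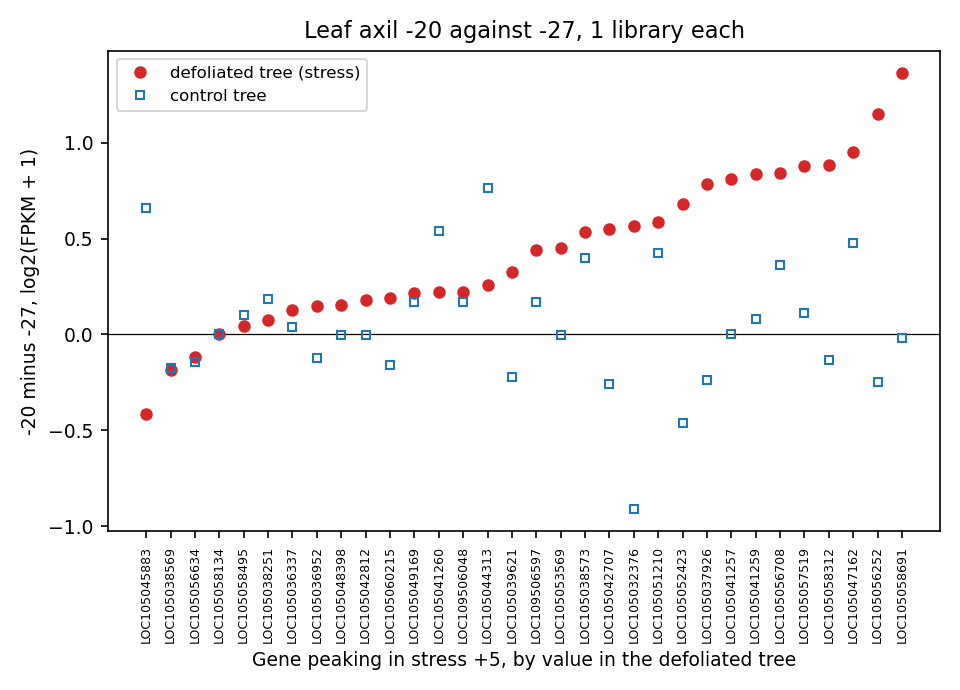
Difference between leaf axils -20 and -27 on the log2(FPKM + 1) scale for each of the 32 genes in the defoliated tree (filled red circles) and in the control tree (open blue squares), 1 library per point, ordered by the value in the defoliated tree. Of the red circles, 28 lie above 0, while the blue squares lie on both sides.

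Whether the trees differed in these genes before leaf axil +5 was tested on the 4 early libraries alone. The choice of genes had capped the values of these libraries at 0.25 times stress +5, so they are not fully independent of it. The test was limma on log2(FPKM + 1) over all 20926 records, with -27 and -20 as the 2 libraries of a tree and Benjamini-Hochberg adjustment. At an adjusted p under 0.01 and 2-fold, 0.124% of the records were higher and 0.378% lower in early stress than in early control, and none of the 32 genes was among them in either direction. At an unadjusted p under 0.05, limma gave 6 members higher (18.8%) and 5 lower (15.6%), against 12.8% and 18.2% of all records. These counts changed when single early libraries were left out, which leaves 1 tree with a single library. No share over all records was taken at this threshold for those fits, so their counts are not given. The p-values measure the spread between 2 leaf axils of 1 tree. The members entered this test through their level in stress +5, and 16 of them did not reach an FPKM of 1 in at least 2 of the early libraries, where a difference is hard to detect. The members' share of calls is therefore a description beside that of all records.

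By size alone on the log2(FPKM + 1) scale, stress was at least 2-fold above control at both early leaf axils in 2 members (6.25%). The share over all records was 1.08%. None was at least 2-fold below, against 2.42%. With 0.1 in place of 1 added to FPKM, 4 members were higher and 2 lower, and the share over all records was not taken at that setting. The 2 members higher on the log2(FPKM + 1) scale were LOC105044313, with a log2 fold change of 1.27 (SE 0.30, adjusted p = 0.0637 from limma), and LOC105038573, with 1.11 (SE 0.25, adjusted p = 0.0612). The smallest adjusted p of a member was that of LOC105038569, 0.0320 from limma, with a log2 fold change of -0.85 (SE 0.13). Its early values were low, 0.136 and 0 FPKM in stress and 1.04 and 0.809 FPKM in control. It was thus among the members that did not reach an FPKM of 1 in at least 2 early libraries. LOC105041260, the gene of highest level in stress +5, had -0.57 (SE 0.21, adjusted p = 0.142). By any amount, 13 members (40.6%) were higher and 6 (18.8%) lower in stress at both early leaf axils, against 31.2% and 40.3% of all records. The median log2 difference between stress and control was -0.03 at -27 and 0.58 at -20 in the members, against -0.03 and -0.06 over all records.

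Gene order in the EG11 table placed 5 of the 28 matched genes close to each other at 2 loci. The order followed the start positions in that table, and distances were not used. The assembly differs from the one the reads were aligned to, and the gene order in the latter was not examined. At the first locus LOC105041260 and LOC105041259 were adjacent, and LOC105041257 followed after 2 further genes. LOC105041259 was at 0.693, 2.03 and 12.4 FPKM in stress and at 0.339, 0.414 and 0.145 FPKM in control, so that all stress values were above all control values. In control +5 the 3 genes of this locus were at 8.94, 0.145 and 0 FPKM. Each had its lowest value there, which LOC105041257 shared with other libraries. Of the 2 genes between them, LOC105041258 did not share the peak, since it was at 61.7, 68.4 and 62.6 FPKM in stress and at 168, 176 and 108 FPKM in control. LOC105041567 was listed at 0 in all libraries. The next 2 genes beyond LOC105041257 were also highest in stress +5 but missed the ratio of 4, and LOC105041255 also missed the FPKM minimum of 5. LOC105041256 was at 1.27, 1.11 and 9.03 FPKM in stress and at 2.36, 3.14 and 0.962 FPKM in control, and LOC105041255 was at 2.01, 0.465 and 3.57 FPKM in stress, against 0.192, 0 and 0 FPKM in control. The gene after these, LOC105041254, was at 2.76, 1.19 and 0 FPKM in stress and at 2.99, 4.23 and 0 FPKM in control. On the other side of the locus, LOC105041261, LOC105041262 and LOC105041263 had their highest values in control libraries. Whether genes of this locus are similar enough in sequence to share reads was not tested.

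At the second locus the long non-coding RNA LOC109506597 was adjacent to the protein coding LOC105057519. The FPKM of the RNA was 0.299, 0.231 and 0.265 times that of its neighbour in stress at -27, -20 and +5, and 0.179, 0.194 and 0.209 times in control. Between stress +5 and control +5 the FPKM of the RNA differed 5.52 times and that of its neighbour 4.35 times. The RNA's FPKM relative to its neighbour ranged from 0.179 to 0.299 over the 6 libraries. It was higher in every stress library than in every control library. LOC105057518, on the other side of the RNA, was at 0.184, 0.363 and 1.15 FPKM in stress and at 0.241, 0.408 and 0.325 FPKM in control. Whether reads of one of the 2 genes were assigned to the other was not tested, and the strand setting of the counting is not given in the sources used here.

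**Figure D4:**
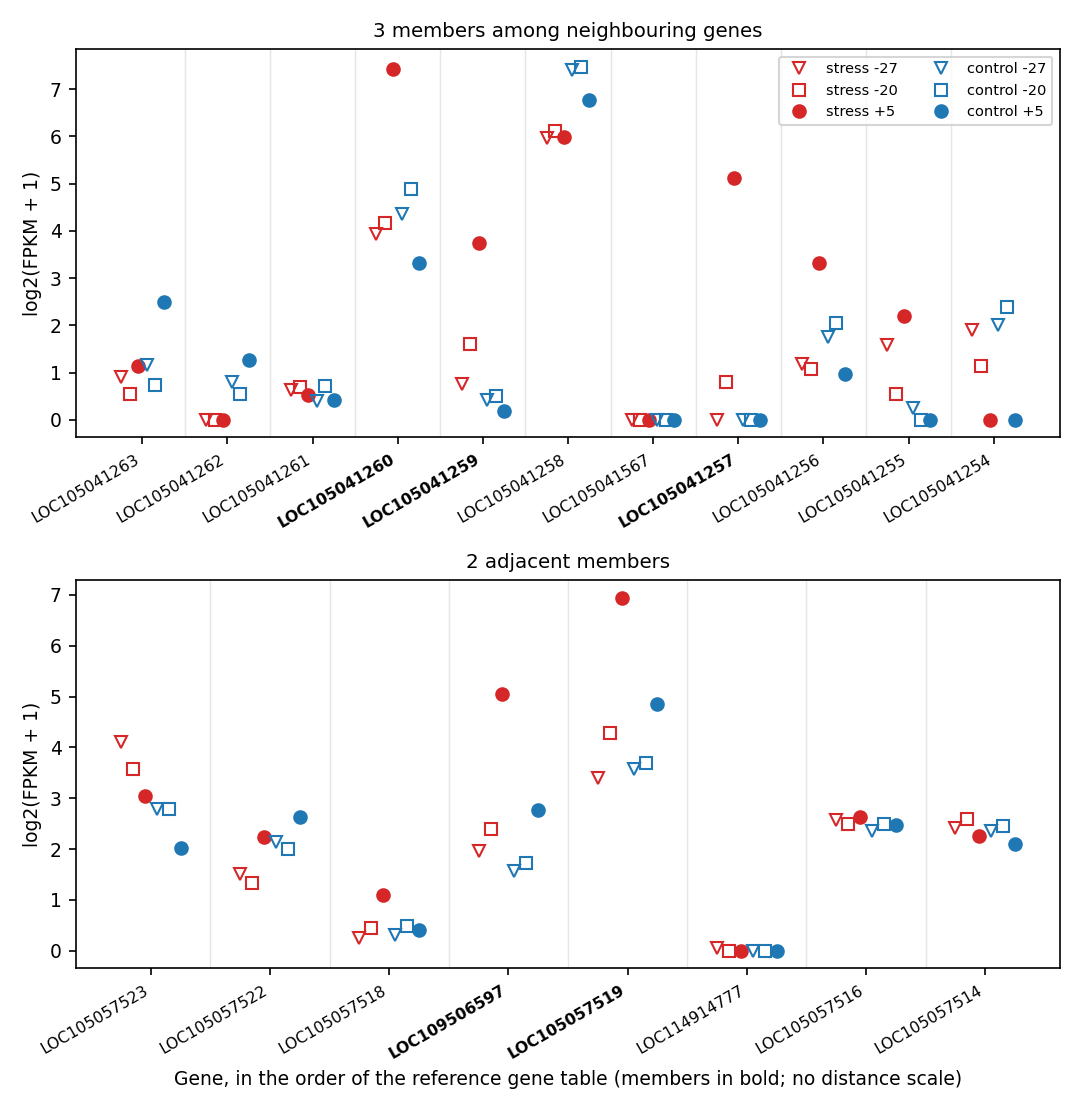
log2(FPKM + 1) of genes in their order in the EG11 table around the locus with 3 members (upper panel) and the locus with 2 members (lower panel), 1 symbol per library, stress in red and control in blue, leaf axil +5 filled, members in bold. At the upper locus LOC105041258, between the members, is at 62.6 FPKM in stress +5 and 108 FPKM in control +5, while the 3 members are at 172, 12.4 and 33.8 FPKM in stress +5.

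The neighbours of all 28 matched genes were examined in the same way. Of 52 non-member genes next to a member, 38 had an FPKM of 1 or more in any library, and 9 of them (23.7%) had their highest value in stress +5, against 20.2% of all 20926 records. LOC105042708, next to LOC105042707, was at 9.78, 7.02 and 31.8 FPKM in stress and at 1.87, 2.78 and 5.68 FPKM in control. Its own ratio was 3.25, and stress +5 was its highest library.

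The same criteria applied to control +5 in place of stress +5 gave 187 genes, 1.69% of the 11069 genes with an FPKM of 5 or more there. Applied to the 4 early libraries they gave 4 genes for control -20, 1 for control -27, 1 for stress -27 and 0 for stress -20. Each early library had the other early leaf axil of its tree among the libraries it was compared with. Between these leaf axils in stress, 0.55% of records were at least 2-fold higher at -20 and 0.497% lower. The +5 libraries had no such close partner in their own tree, so the early counts are not comparable with those at +5. Fewer genes stood out in stress +5 than in control +5. Without control +5 among the other libraries, 95 genes in place of 32 had an FPKM of 5 or more in stress +5 and 4 times the highest remaining value.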

How the data were processed

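RNA from 6 inflorescences was sequenced as paired ends on an Illumina instrument. Per the submitters' processing notes and the paper's methods, untrimmed reads were aligned with HISAT2 2.1.0 to the reference assembly of oil palm, and gene abundances were estimated with StringTie 1.3.4. The authors deposited FPKM values, which are scaled for gene length and library size and hold no counts, and 0 columns of the table belonged to no sample. The members and lists were chosen with earlier results of these data known.

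Values were compared on log2(FPKM + 1) over the 20926 records that reached an FPKM of 1 in any library. Early libraries were tested with limma 3.58.1 in R 4.3.3 (eBayes with a mean-variance trend), at an adjusted p under 0.01 and 2-fold. The procedure was also run on simulated data with independent libraries and changes larger than any early difference of a member. That run does not show how it performs on leaf axils of the same tree or on smaller changes. Other steps used Python 3.11.15, numpy 2.4.6, pandas 2.3.3 and matplotlib 3.10.9. Named genes were the 12 highest in stress +5, the 12 with the largest ratio at FPKM + 0.1, the 4 nearest to the ratio of 4 on each side, the 4 with the largest differences of control +5 from the early controls in each direction, and neighbouring members. Further genes are named as neighbours or for a value that was seen. Gene sets by product and promoter motifs were not analysed here. Symbols of the RefSeq EG11 table matched 28210 records (87.9%).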

Additional observations from a re-analysis of the deposited data

Results flagged for a closer look

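In 5 genes the control tree differed in direction from the defoliated tree, where stress +5 was above both early stress libraries by the choice of genes. The 5 genes are 15.6% of the 32, against 36.6% of all records with control +5 below both early controls. Control +5 was below both early controls by a mean log2 difference of -1.31 in LOC105041260, -0.90 in LOC105048398, -0.33 in LOC105058495, -0.27 in LOC105041259 and -0.25 in LOC105060215. The last 2 of these rest on low values. In control at -27, -20 and +5, LOC105041259 was at 0.339, 0.414 and 0.145 FPKM and LOC105060215 at 0.381, 0.238 and 0.101 FPKM. With 1 library at +5 per tree the difference in direction between the trees was not tested.

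In 6 genes stress was below control at both early leaf axils, while stress +5 was above control +5 by the choice of genes. The 6 genes are 18.8% of the 32, against 40.3% of all records below control at both early leaf axils. The mean early log2 difference was -0.85 in LOC105038569, -0.57 in LOC105041260, -0.56 in LOC105048398, -0.51 in LOC105058495, -0.40 in LOC109506048 and -0.17 in LOC105049169. In LOC105038569, LOC109506048 and LOC105049169 the early values were low, at most 1.04 FPKM in any early library. The change of direction between early leaf axils and +5 was not tested. LOC105041260, LOC105048398 and LOC105058495 were in both sets, 3 genes in all.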

How the results depend on the processing

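The number of genes chosen, 32, became 58 at an FPKM minimum of 2, 134 at a ratio of 2, 13 at a ratio of 8 and 21 with a ratio of FPKM + 1. Leaving out 1 of the other libraries gave 33 to 95 genes, and the 95 came without control +5. All 32 were among the 42 chosen after quantile normalization, and 31 were among the 39 chosen after division by library medians. Genes at least 2-fold higher in control +5 than in both early controls numbered 10 with a pseudocount of 0.1, 2 with centring on medians and 0 at 4-fold in place of 4, and without 1 early control 4 to 7, the 7 coming without control -20. Those lower numbered 2 with a pseudocount of 0.1 and 0 at 4-fold in place of 1. For stress against control at both early leaf axils, a pseudocount of 0.1 gave 4 higher and 2 lower in place of 2 and 0, and at 4-fold 0 were higher. These fold counts are of members only. The share over all records was not taken at these other settings, so a change in a count is not a result about the members. In limma no member was called in the early comparison under any of the 11 alternatives. These included the leaf axil as a replicate block, with 0 members and 0 records called in either direction. Over all records, the early calls of 26 higher and 79 lower became 0 and 0 with a pseudocount of 0.1 or without any 1 early library, 0 and 1 without a filter, 205 and 491 with an FPKM of 1 or more in at least 2 early libraries, 22 and 37 after centring, 10 and 25 without a trend, and 279 and 613 at an adjusted p under 0.05. Libraries of the same leaf axil deviated together little across genes (r = 0.0195), and they come from different trees. The 28 members higher at stress -20 than at -27 numbered 28 under both other scalings, which were chosen after seeing the data. Depth limits members with an FPKM under 1, whose counting error is unknown here.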
